A study of Saccharomyces cerevisiae with 6 samples.

Results

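The heat shock proteins and chaperones of budding yeast were followed through mRNA-Seq libraries of cells that overexpressed *PPZ1*, which encodes a Ser/Thr protein phosphatase toxic in excess, and of control cells. The genes were chosen by name, from a list of 36 chaperone and heat shock genes, and all 36 were found among the 6687 features of the deposited table. Cells were the haploid strain BY4741 of mating type a, carrying pCM190 with the *PPZ1* open reading frame (PPZ1 cells) or the empty plasmid (control cells), and both strains passed through the same overnight doxycycline treatment that kept the plasmid promoter off and the same hours of growth without it. Both were then filtered and placed for 1 h in 2% galactose, in 0.25% glucose or in 2% glucose, which gave 6 libraries, 1 per condition, with no replicate. The *PPZ1* transgene thus came from a plasmid promoter that doxycycline represses, and no second clone or culture was sequenced.

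Reads in features ranged from 1845237 (PPZ1 cells in 0.25% glucose) to 6784469 (control cells in 0.25% glucose), and levels are given as CPM, that is, as deposited values relative to the summed reads of the deepest library and scaled per 1e+06. *PPZ1* itself stood in PPZ1 cells at 2705 CPM in galactose, 17798 CPM in 0.25% glucose and 12538 CPM in 2% glucose. In control cells it stood at 75.0 to 94.3 CPM, so the strength of overexpression differed between carbon sources. The a-cell pheromone receptor gene *STE2* had 145 to 592 CPM and *MF(ALPHA)1*, specific to the opposite mating type, at most 2.45 CPM, while *MET17*, deleted in BY4741, had 0 reads in every library. Errors beside log2 changes between 2 single libraries are standard errors (SE) from Poisson counting of reads and leave out the variation between cultures. Errors beside log2 changes of the edgeR model, described below, come from the fit of that model and are not counting errors. A difference between single libraries has no replicate check, so a gene is called higher or lower here when it differed at least 2-fold and its mean over both libraries was at least 10 CPM. All 36 genes passed this minimum in all 7 comparisons. CPM is a relative measure and keeps the small offset between the scaled totals (6595377 to 6784469), so it differs slightly from the percentages of a library's own reads, and a change in the total RNA of a cell cannot be told apart from a change in a gene's relative level.

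Chaperones bind unfolded or partly folded proteins and keep them from aggregating. Hsp70 proteins work with J proteins, which deliver substrates and stimulate ATP hydrolysis, and with exchange factors that release ADP, whereas Hsp90 acts later on a narrower set of clients with a cycle of co-chaperones. Hsp104 pulls proteins back out of aggregates, and small heat shock proteins hold them in a form from which they can be recovered. In yeast, the heat shock factor Hsf1 drives many of these genes through heat shock elements, while Msn2 and Msn4, held in check by glucose signalling through protein kinase A, act through the stress response element.

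Differences between galactose and glucose were far larger in these genes than differences between PPZ1 and control cells. In galactose against 2% glucose, 18 of the 36 genes were at least 2-fold higher in PPZ1 cells, where 19.8% of all genes tested were, and 18 in control cells, where 23.0% of all genes were. They were the same 18 genes in both strains. With the trend by coding length removed, *SSA1* in control cells and *LHS1* in PPZ1 cells were no longer past 2-fold. By the same removal *ZUO1* in PPZ1 cells (-1.18) and *LHS1* in control cells (-1.005) came past it. Lower by the same measure were 4 genes in PPZ1 cells and 5 in control cells, against 21.1% and 19.7% of all genes, and 3 of them (*SSB1*, *SSB2* and *SSZ1*) were lower in both. The median log2 change of the 36 genes was 0.95 in PPZ1 cells and 0.99 in control cells, whereas that of all genes tested was -0.08 and 0.06. Every one of the 36 genes differed in the same direction in both strains, and the strain difference in the response (PPZ1 minus control) ran from -0.34 to 0.34 on the log2 scale, with a median size of 0.15 against 0.18 for all genes. That difference was not tested, for want of replicates, and *PPZ1* itself was lower in PPZ1 cells in galactose than in 2% glucose.

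**Figure D1:**
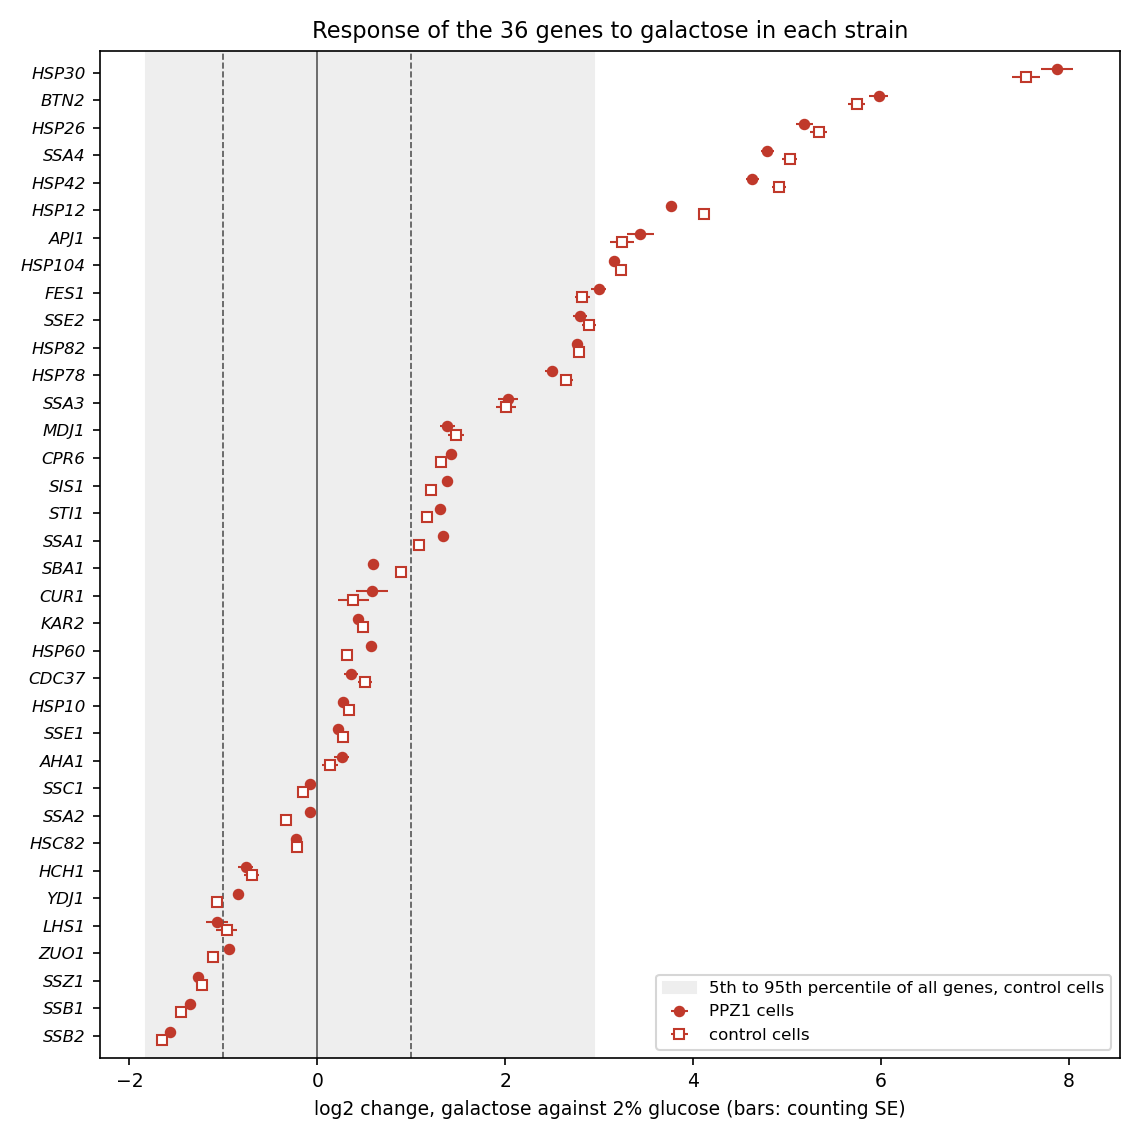
Response of each of the 36 genes to galactose, as the log2 change between the galactose and the 2% glucose library (x axis), in PPZ1 cells (filled circles) and control cells (open squares), with counting SE as bars and dashed lines at a 2-fold change. The shaded band is the 5th to 95th percentile of all genes in control cells only. The genes run from *HSP30*, at 7.88 and 7.54, to *SSB2*, at -1.57 and -1.65, and the symbols of both strains lie close together for each gene.

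A share of the reads shows the same shift. The 36 genes together took 5.44% of the reads in features in PPZ1 cells in galactose and 4.82% in control cells in galactose, against 2.28% and 2.21% in 2% glucose and 2.32% and 2.40% in 0.25% glucose (PPZ1 cells before control cells). In galactose, *HSP12* alone took 1.15% of the reads in PPZ1 cells and 1.01% in control cells. Both galactose libraries lay above all 4 glucose libraries for 22 of the 36 genes (36.6% of all genes) and below all 4 for 8 genes (36.8% of all genes). For *AHA1*, *CDC37*, *SSA2*, *SSC1*, *HSP60* and *HSP10* the galactose and glucose libraries overlapped.

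A model with 1 term for the plasmid and 1 for the carbon source, fitted to the recovered read counts of all 6 libraries with edgeR's quasi-likelihood test, describes the part of the response that both strains share and assumes that it is the same in both. It called 22 of the 36 genes higher in galactose than in 2% glucose at an adjusted p of 0.05 (32.9% of all genes) and 7 lower (also 32.9%). Of these 29 calls, 22 stayed past the threshold under all 9 alternatives, which were other size factors, DESeq2, no minimum level and each library left out in turn. *ZUO1* kept its call under 8, *YDJ1* under 7, *SBA1* under 6, *HCH1* under 5, *KAR2* under 4, and *CUR1* and *CDC37* under 3. The model rests on 2 residual degrees of freedom, and each fit with a library left out rests on 1. Such a fit keeps 1 library in 1 carbon source, so the number of genes it calls is not given.

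The upstream sequences of the genes were searched because Hsf1 and Msn2/Msn4 are the textbook regulators of this family. The window was the 500 bases before each start codon on the R64 genome from RefSeq, available for all 36 genes and for 5926 genes in all. A heat shock element was counted as at least 3 alternating units of GAA and TTC spaced 5 bases apart, that is, the forms GAANNTTC and TTCNNGAA overlapping by 1 unit, read on both strands. Such an element was present in 14 of the 36 windows (38.9%) and in 1.5% of all windows. It was in 8 of the 18 genes higher in galactose (44.4%), in 6 of the 12 that changed less than 2-fold (50.0%) and in none of the 6 genes lower in either strain. The stress response element, AGGGG or CCCCT, which can share a base with a unit of these forms, was in 11 of the 18 genes (61.1%), in 2 of the 12 (16.7%) and in 0 of the 6, against 34.0% of all windows. At least 2 copies were in 10 of the 18 and in 8.15% of all windows. A match is a string of letters and says nothing of binding. Only exact forms within 500 bases were counted, so a window without a match can still hold a less exact or more distant element. The heat shock elements of 6 genes higher in galactose are shown first, for comparison of their spacing, and those of 3 genes that changed less than 2-fold after them, since the same arrangement occurs in both. Units are in capitals, and all run 5′ to 3′ on the strand of the gene, in R64 coordinates.
BTN2, chrVII:772098-772139, plus strand: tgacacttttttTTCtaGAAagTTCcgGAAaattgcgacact
HSP42, chrIV:806366-806407, plus strand: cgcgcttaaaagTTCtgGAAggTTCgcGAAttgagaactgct
HSP104, chrXII:88309-88350, plus strand: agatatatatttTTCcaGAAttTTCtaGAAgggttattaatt
FES1, chrII:444840-444876, minus strand: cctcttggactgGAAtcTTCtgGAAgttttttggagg
SIS1, chrXIV:619875-619921, minus strand: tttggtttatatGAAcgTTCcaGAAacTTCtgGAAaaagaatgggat
SSA1, chrI:141766-141807, minus strand: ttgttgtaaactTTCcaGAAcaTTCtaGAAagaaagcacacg
KAR2, chrX:381110-381151, plus strand: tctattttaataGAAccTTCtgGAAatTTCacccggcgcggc
HSP60, chrXII:665188-665224, minus strand: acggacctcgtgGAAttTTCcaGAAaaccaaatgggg
SSA2, chrXII:97694-97730, minus strand: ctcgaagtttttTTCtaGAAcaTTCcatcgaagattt

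Stress response elements stood in clusters in some of the genes that were highest in galactose over glucose. *HSP12* held 5 in its window and no heat shock element, *HSP42*, *HSP104* and *HSP78* held 3 of them with a heat shock element, and *HSP26* and *SSA4* held 3 without a heat shock element of 3 units. *HSP30* and *SSA3* held neither element in these exact forms. The stretches of *HSP42* and *HSP12* with 3 elements each, in capitals, show how close they can lie, and that of *HSP12* overlaps the open reading frame YFL015C.
HSP42, chrIV:806404-806448, plus strand: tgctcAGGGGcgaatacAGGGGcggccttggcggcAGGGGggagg
HSP12, chrVI:106816-106888, plus strand: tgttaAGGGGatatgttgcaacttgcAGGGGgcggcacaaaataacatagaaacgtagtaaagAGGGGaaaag

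**Figure D2:**
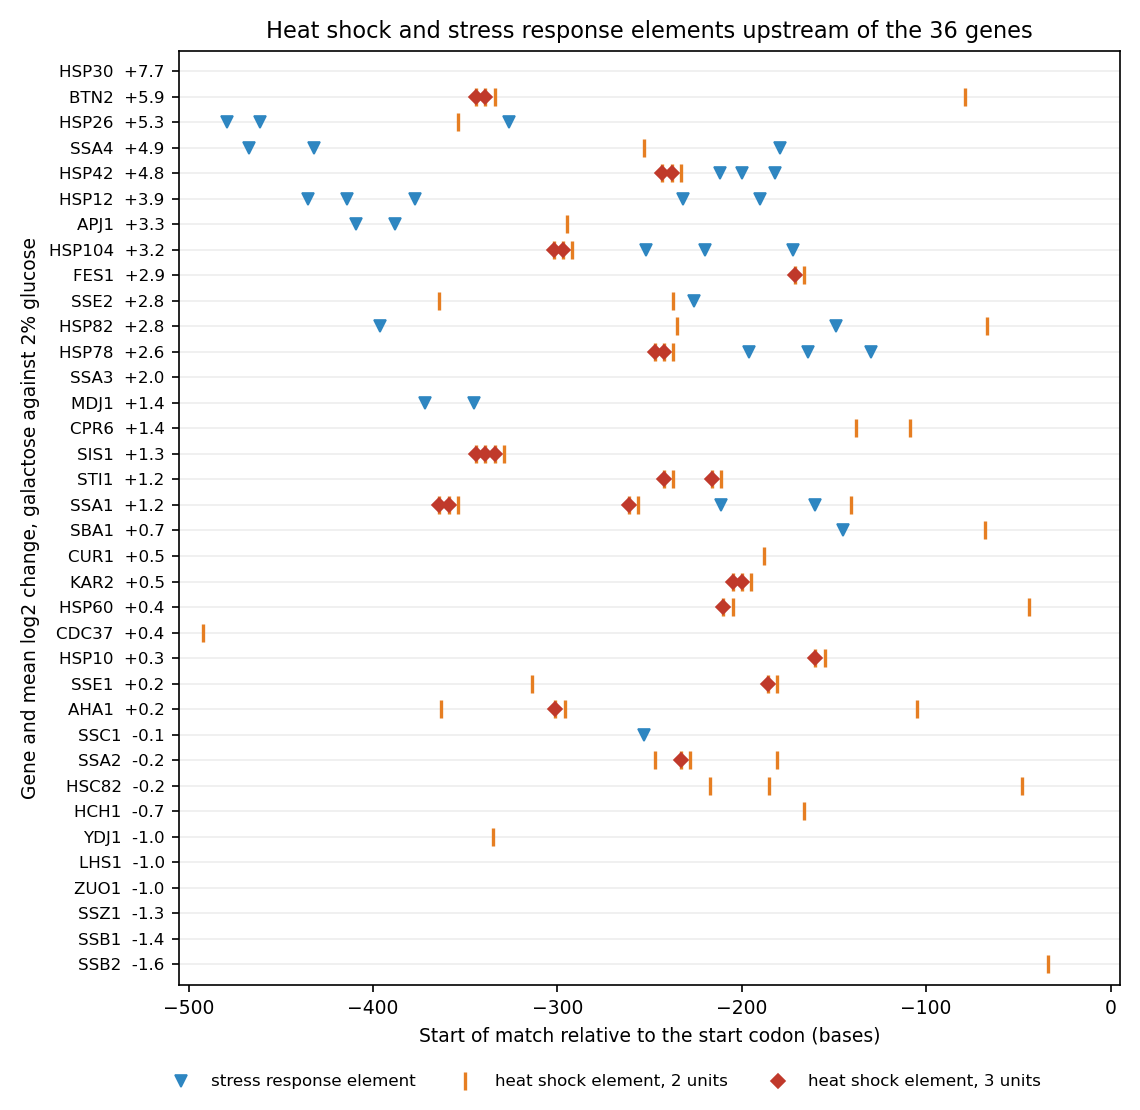
Matches upstream of the 36 genes, by distance from the start codon in bases (x axis), with the genes ordered from top to bottom by the mean log2 change in galactose of both strains, printed beside each name. Triangles are stress response elements, bars 2 units and diamonds 3 units of a heat shock element. Triangles lie mostly in the upper part, whereas diamonds reach down to *SSA2*, at -0.20, and the 6 genes at the bottom have neither triangles nor diamonds.

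Of the 5 genes for disaggregation and for the handling of aggregates, 4 were at least 2-fold higher in galactose in each strain. Of all genes, 19.8% were in PPZ1 cells and 23.0% in control cells. *BTN2*, which sorts misfolded proteins to aggregate deposits, had 2517 CPM in PPZ1 cells and 2271 CPM in control cells in galactose, against 44.3 and 42.2 CPM in 0.25% glucose and 38.9 and 41.5 CPM in 2% glucose. Its galactose libraries were thus 63.1-fold and 53.5-fold above those of 2% glucose in PPZ1 and control cells, and its 4 glucose libraries lay within a narrow range. *HSP26*, a small heat shock protein, had 2056 and 1831 CPM in galactose in PPZ1 and control cells, against 79.6 and 49.5 CPM in 0.25% glucose and 55.5 and 44.3 CPM in 2% glucose. *HSP42*, the small heat shock protein that also works in unstressed cells, had 2189 and 2016 CPM in galactose, against 85.9 and 80.9 CPM in 0.25% glucose and 87.4 and 65.8 CPM in 2% glucose. These 3 genes were low in every glucose library and high in both galactose libraries. *HSP104* began from a higher level, with 3696 and 3498 CPM in galactose, against 276 and 427 CPM in 0.25% glucose and 412 and 370 CPM in 2% glucose, a log2 change of 3.16 ± 0.03 in PPZ1 cells and 3.24 ± 0.03 in control cells against 2% glucose. *CUR1*, the paralog of *BTN2* in the sorting of misfolded proteins, kept to a far smaller range, with 37.6 and 36.2 CPM in galactose and 24.8 to 30.5 CPM in the glucose libraries.

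Of the 8 genes for Hsp90 and its co-chaperones, 3 were at least 2-fold higher in galactose in each strain, against 19.8% of all genes in PPZ1 cells and 23.0% in control cells. *HSP82*, the heat-inducible Hsp90, had 3297 and 3038 CPM in galactose in PPZ1 and control cells, against 456 and 439 CPM in 0.25% glucose and 483 and 439 CPM in 2% glucose. *HSC82*, its constitutive paralog, had 2092 and 2187 CPM in galactose, against 3188 and 2753 CPM in 0.25% glucose and 2449 and 2545 CPM in 2% glucose. Both galactose libraries lay below all glucose libraries for *HSC82*, but by less than 2-fold, and the model did not call it (log2 change -0.21 ± 0.22, edgeR adjusted p 0.419). *CPR6*, a cyclophilin that binds Hsp90, had 654 and 588 CPM in galactose against 218 to 243 CPM in glucose. *STI1*, which links Hsp70 to Hsp90, had 792 and 718 CPM in galactose against 276 to 328 CPM in glucose. Other co-chaperones moved less. *SBA1*, the yeast p23, was higher in galactose (model log2 change 0.77 ± 0.21, edgeR adjusted p 0.0102), *HCH1*, related to the ATPase activator *AHA1*, was lower (-0.72 ± 0.20, edgeR adjusted p 0.0124), and *AHA1* itself was not called (0.22 ± 0.18, edgeR adjusted p 0.303). *CDC37*, the kinase-specific co-chaperone, had a model log2 change of 0.46 ± 0.18 (edgeR adjusted p 0.0450), past the threshold in 3 of the 9 alternatives.

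Among the cytosolic Hsp70 genes the inducible members stood apart. *SSA4*, the heat-inducible Hsp70, had 2638 and 1879 CPM in galactose in PPZ1 and control cells, against 112 and 61.2 CPM in 0.25% glucose and 94.2 and 56.5 CPM in 2% glucose. *SSA3*, a second inducible Hsp70, had 189 and 168 CPM in galactose, against 37.9 to 45.4 CPM in the 4 glucose libraries. *SSA1* had 4355 and 3437 CPM in galactose, against 1980 and 2281 CPM in 0.25% glucose and 1724 and 1617 CPM in 2% glucose. *SSA2*, the constitutive Hsp70, overlapped between carbon sources, with 2625 and 2242 CPM in galactose and 2296 to 2817 CPM in glucose. The coding sequences of *SSA1* and *SSA2* were identical at 96.4% of aligned positions, and 57.9% of their 50-base windows occurred in both, so how reads were divided between them is uncertain. Their sum, which does not depend on that division, differed by 0.63 in PPZ1 cells and 0.36 in control cells on the log2 scale, below 2-fold.

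The partners of Hsp70 were split. *SSE2*, the less abundant Hsp110 exchange factor, had 631 and 644 CPM in galactose against 84.3 to 93.3 CPM in glucose, while *SSE1*, its paralog, had 1576 and 1556 CPM against 1140 to 1417 CPM. *FES1*, another exchange factor, had 641 and 540 CPM in galactose against 75.5 to 88.5 CPM in glucose. Of the J proteins, *APJ1* had 231 and 221 CPM in galactose against 20.4 to 26.2 CPM in glucose, and *SIS1*, which is essential, had 660 and 631 CPM against 252 to 273 CPM. *YDJ1*, the main general J protein of the cytosol, went the other way, with 263 and 245 CPM in galactose against 449 to 515 CPM in glucose, a log2 change of -0.84 ± 0.05 in PPZ1 cells and -1.07 ± 0.05 in control cells. The galactose and glucose libraries did not overlap for these genes, as they did not for 36.6% (above) and 36.8% (below) of all genes.

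Levels per length show how the make-up of the paralog families differed. *SSA4* made up 26.9% of the summed level per kb of *SSA1* to *SSA4* in PPZ1 cells in galactose and 24.3% in control cells in galactose, against 1.21% to 2.52% in the glucose libraries, and the sum itself was 4838 and 3812 CPM per kb against 2186 to 2498 CPM per kb. *HSP82* was 1.57 times *HSC82* per length in PPZ1 cells in galactose and 1.38 times in control cells in galactose, whereas in the glucose libraries *HSC82* was 5.10 to 7.03 times *HSP82*. The Hsp90 pair was identical at 91.7% of positions, with 6.39% of windows shared. *SSE1* exceeded *SSE2* in every library, by 2.50 and 2.42 times in galactose and by 13.5 to 15.2 times in glucose.

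**Figure D3:**
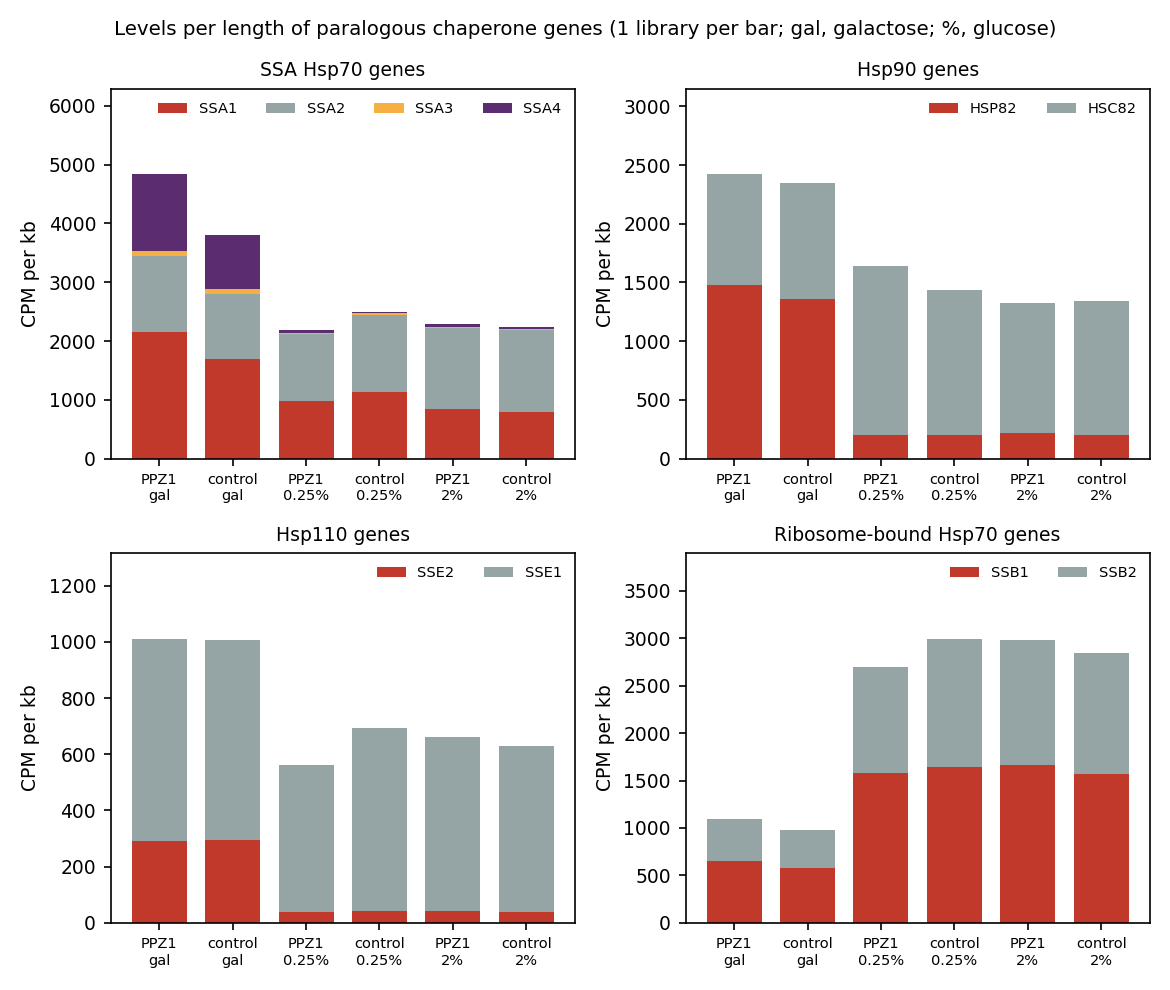
Levels per length (CPM per kb) of paralogous genes, stacked, with 1 library per bar in the order PPZ1 and control cells in galactose, 0.25% glucose and 2% glucose. The *SSA* and Hsp90 bars are taller in galactose and hold large *SSA4* and *HSP82* parts, the Hsp110 bars gain an *SSE2* part, and the *SSB* bars stand at 1092 and 981 CPM per kb, against 2694 to 2998 CPM per kb in glucose.

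The ribosome-associated chaperones, which meet nascent chains as they leave the ribosome, were lower in galactose. *SSB1*, one of a pair of Hsp70 genes for the ribosome, had 1257 and 1116 CPM in galactose in PPZ1 and control cells, against 3078 and 3187 CPM in 0.25% glucose and 3222 and 3052 CPM in 2% glucose. *SSB2* had 864 and 789 CPM in galactose against 2154 to 2635 CPM in glucose. The 2 genes were identical at 97.5% of positions, with 43.2% of windows shared, so their division is uncertain, and their sum was lower by the same measure, with a log2 change of -1.45 in PPZ1 cells and -1.54 in control cells. *SSZ1* and *ZUO1*, which form the Hsp70 and J protein complex that works with Ssb, had 332 and 322 CPM and 348 and 288 CPM in galactose, against 756 to 824 CPM and 623 to 817 CPM in glucose. All 4 genes thus lay below every glucose library in both strains, as 36.8% of all genes did. The model called all 4 lower, with log2 changes of -1.59 to -1.01, where it called 32.9% of all genes lower. The 138 genes of cytosolic ribosomal proteins moved with them, with a median log2 change of -1.78 in PPZ1 cells and -1.95 in control cells. At least 2-fold lower were 128 and 131 of them, against 21.1% and 19.7% of all genes. Their part in the result for the chaperones was not tested. Without the ribosome-associated genes, the other 32 had median changes of 1.36 and 1.19.

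The mitochondrial chaperones were split as well, with 2 of 5 higher in each strain, against 19.8% of all genes in PPZ1 cells and 23.0% in control cells. The disaggregase gene *HSP78* had 654 and 642 CPM in galactose in PPZ1 and control cells, against 98.5 to 124 CPM in glucose, and *MDJ1*, the J protein of the matrix, had 244 and 222 CPM against 78.8 to 93.0 CPM. The chaperonin genes *HSP60*, at 882 and 765 CPM in galactose and 592 to 891 CPM in glucose, and *HSP10*, at 311 and 345 CPM and 257 to 326 CPM, overlapped between the carbon sources. The same held for *SSC1*, the matrix Hsp70 that also drives protein import, at 931 and 827 CPM in galactose and 653 to 1228 CPM in glucose. In the endoplasmic reticulum, the Hsp70 gene *KAR2* had 726 and 756 CPM in galactose against 414 to 590 CPM in glucose, whereas the Hsp110 gene *LHS1*, which is the exchange factor for Kar2, had 50.3 and 61.0 CPM against 88.5 to 120 CPM. The pair thus moved in opposite directions, with model log2 changes of 0.48 ± 0.19 for *KAR2* (edgeR adjusted p 0.0465, past the threshold in 4 of 9 alternatives) and -1.01 ± 0.18 for *LHS1* (edgeR adjusted p 0.000876, in 9 of 9).

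Both membrane heat shock genes were among the strongest. *HSP30*, which encodes a plasma membrane protein that lowers H+-ATPase activity, had 3180 and 2795 CPM in galactose in PPZ1 and control cells, against 14.2 and 12.7 CPM in 0.25% glucose and 12.5 and 14.0 CPM in 2% glucose. It stood 5th from the top among 5382 genes in PPZ1 cells and 11th among 5403 in control cells. Per length *HSP30* was the lowest of the 36 genes in every glucose library and the second highest in both galactose libraries. In glucose it lay close to *APJ1* per length, except in control cells in 0.25% glucose (11.5 against 15.6 CPM per kb). *HSP12*, which encodes a small protein that binds membranes, had 11310 and 10005 CPM in galactose, against 1190 and 686 CPM in 0.25% glucose and 828 and 578 CPM in 2% glucose. Per length it was the highest of the 36 in both galactose libraries and in both libraries of PPZ1 cells in glucose.

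**Figure D4:**
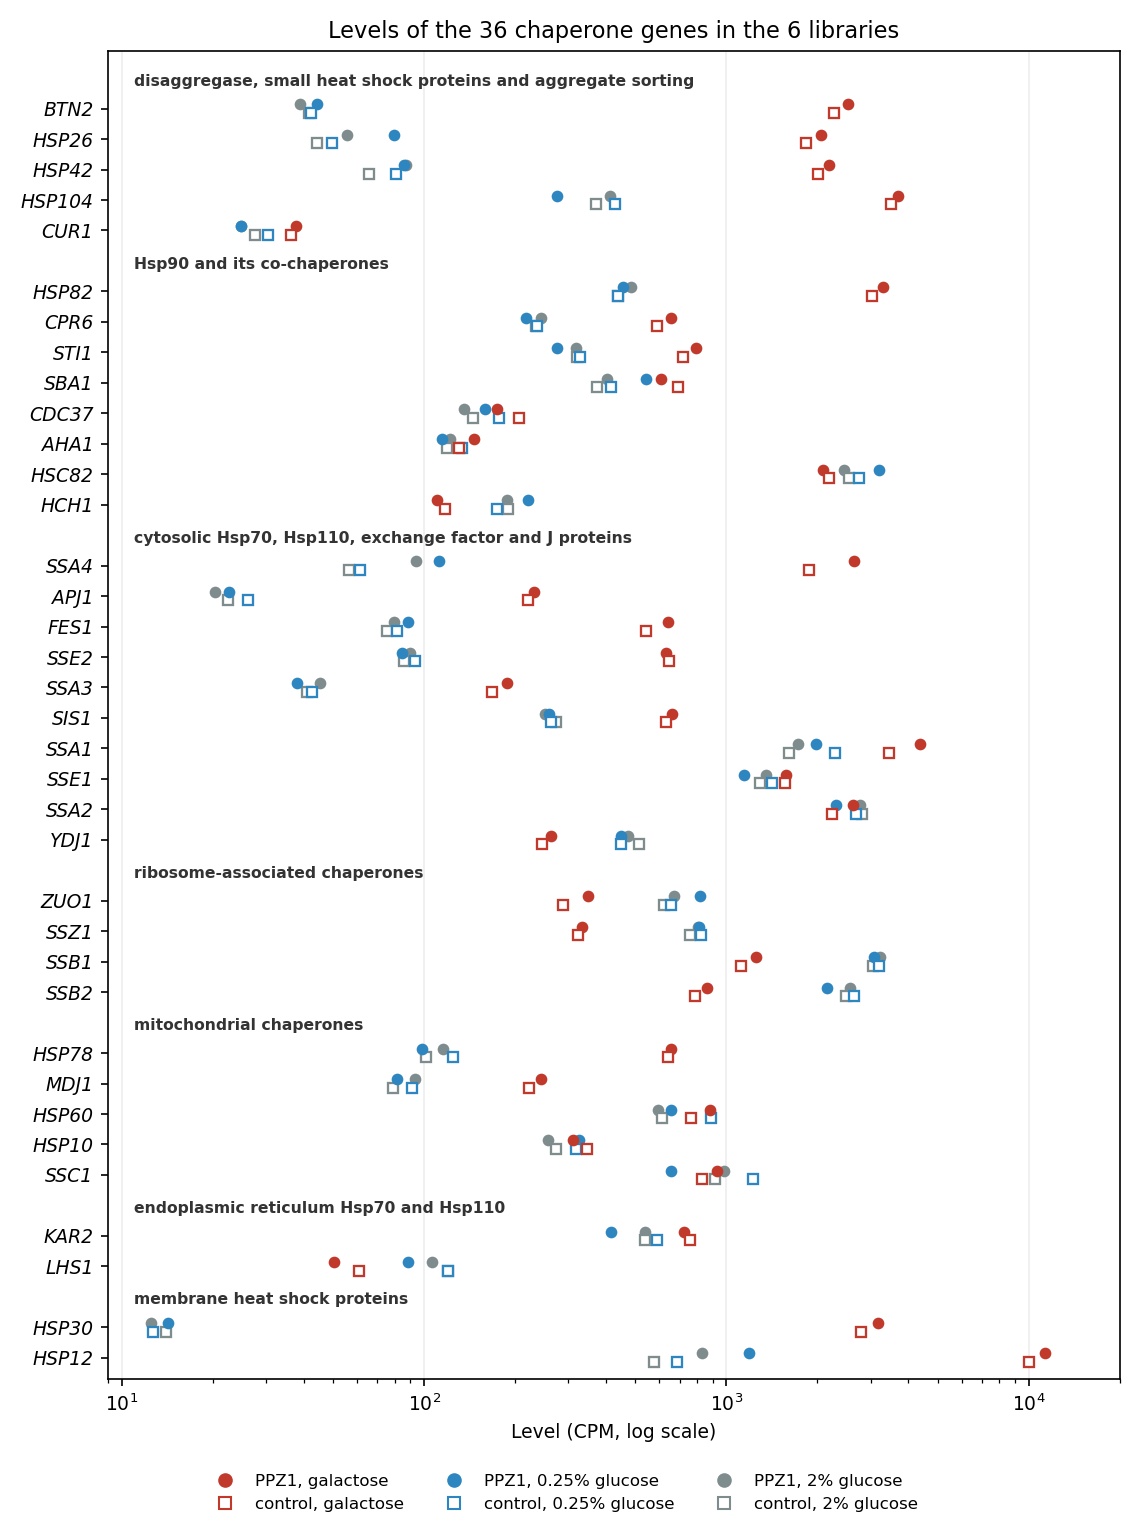
Level of each of the 36 genes in CPM (log scale), grouped by role, in PPZ1 cells (filled circles) and control cells (open squares) in galactose (red), 0.25% glucose (blue) and 2% glucose (grey), with 1 point per library. Red symbols stand far to the right of the others for *BTN2*, *HSP26*, *HSP42*, *SSA4*, *HSP30* and *HSP12*, and to the left for the 4 ribosome-associated genes.

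Counts in other folding lists stand against 19.8% of all genes higher and 21.1% lower in PPZ1 cells, and 23.0% and 19.7% in control cells, so those of the TRiC, endoplasmic reticulum and J protein lists that were lower are close to or under these shares. None of the 8 subunits of the TRiC chaperonin, which folds actin and tubulin, was at least 2-fold higher in galactose, 2 were lower in each strain (*CCT5* and *CCT7*), and the median log2 change was -0.82 in both PPZ1 and control cells. Of the 6 prefoldin subunits, which hand substrates to TRiC, 5 were lower in PPZ1 cells and 4 in control cells, with *GIM5* at -1.47 ± 0.17 and -1.31 ± 0.16. Among 6 further Hsp90 co-chaperones 4 were lower in each strain, including *CNS1* and *PPT1*. The phosphatase gene *PPT1* stood at 30.7 and 33.7 CPM in galactose against 92.6 and 111 CPM in 2% glucose. Of 15 genes for folding in the endoplasmic reticulum none was higher, and 1 in PPZ1 cells and 3 in control cells were lower, among them *JEM1* in both. Of 10 other J proteins, 8 passed the minimum, with 1 higher (*XDJ1*, at 1.92 ± 0.12 and 1.99 ± 0.12) and 1 lower (*PAM18*, at -1.74 ± 0.16 and -1.51 ± 0.15). Among 6 other mitochondrial folding genes *ECM10* was higher in control cells only by the 2-fold measure, at 0.76 ± 0.20 in PPZ1 cells and 1.34 ± 0.20 in control cells, a difference that was not tested.

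Stress genes outside the family were read against the same shares of all genes. Of 8 other heat shock genes, 5 passed the minimum, and 2 in PPZ1 cells and 3 in control cells were higher, among them the polyubiquitin gene *UBI4*, with 1088 and 1238 CPM in galactose against 216 and 165 CPM in 2% glucose. Of 18 textbook targets of Msn2 and Msn4, 16 were higher in PPZ1 cells and 18 in control cells, with medians of 2.60 and 3.01. *TMA10*, a ribosome-associated stress protein gene, led that list with 5694 and 7346 CPM in galactose against 29.3 and 25.7 CPM in 2% glucose. Among 5 genes of heat shock and stress transcription factors, 1 was higher in PPZ1 cells and 2 in control cells, and 1 was lower in each. *MSN4* was higher in both (1.38 ± 0.11 in PPZ1 cells and 1.27 ± 0.10 in control cells) and *SKN7* lower (-1.53 ± 0.15 and -1.48 ± 0.16). *HSF1*, named here after its values were seen, stood at 0.87 ± 0.10 in PPZ1 cells and at 1.08 ± 0.10 in control cells, past 2-fold in control cells, and the strain difference was not tested.

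In 0.25% glucose against 2% glucose, none of the 36 genes reached a 2-fold difference in either direction. The share of all genes that did was 1.67% higher and 4.76% lower in PPZ1 cells and 0.897% higher and 0.134% lower in control cells. The median log2 change of the 36 was -0.01 in PPZ1 cells and 0.12 in control cells, and that of all genes -0.09 and 0.13. Positive changes were small, as in *HSP60*, at 0.15 ± 0.05 in PPZ1 cells and 0.54 ± 0.03 in control cells, *SSA1*, at 0.20 ± 0.03 and 0.50 ± 0.02, and *HSP12*, at 0.52 ± 0.04 and 0.25 ± 0.03. *HSP104* and *SSC1* differed in sign between the strains, at -0.58 ± 0.07 and -0.59 ± 0.05 in PPZ1 cells and 0.21 ± 0.04 and 0.42 ± 0.03 in control cells, and 17 of the 36 genes had the same sign in both. These changes also went with coding length, with a Spearman's correlation over all genes of -0.598 in PPZ1 cells and 0.235 in control cells. With that trend removed, *HSP104* stood at -0.09 and 0.02 and *SSC1* at -0.26 and 0.24 in PPZ1 and control cells. The part of the trend in the sign count was not tested. The edgeR model called 0 of the 36 in either direction, against 0.334% of all genes higher and 0.111% lower. At an unadjusted p under 0.05 it also had 0 of the 36 genes, against 347 of all 5382 genes. DESeq2 called 0 of the 36, against 42 of 5382 genes higher and 10 lower. Without the library of control cells in 0.25% glucose, the model log2 changes of *HCH1*, *HSP10*, *HSP26* and *SBA1* were 0.30 to 0.61, against 0.03 to 0.31 with all 6 libraries. That of *SSC1* was -0.56, against -0.08. Without PPZ1 cells in 0.25% glucose, that of *HSP60* was 0.50, against 0.32. These members are named because those fits called them, along with many genes outside the list. With 1 library left in 0.25% glucose, only log2 changes are given. No difference within a strain could be tested with 1 library per condition, and 2-fold is a descriptive cutoff only.

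In PPZ1 against control cells, none of the 36 genes reached 2-fold in any carbon source. The level of *PPZ1* in PPZ1 cells was lowest in galactose (2705 CPM, against 12538 CPM in 2% glucose and 17798 CPM in 0.25% glucose). Differences between carbon sources in this comparison thus go with differences in overexpression. In 2% glucose the share of all genes past 2-fold was 0.115% higher and 0.0576% lower, in 0.25% glucose 0.801% and 9.96%, and in galactose 0.0187% and 0.0561%. The median log2 change of the 36 was 0.06 in 2% glucose, -0.13 in 0.25% glucose and 0.13 in galactose, whereas that of all genes was -0.03, -0.24 and -0.13. When size factors were taken as medians of ratios, the medians over all genes became 0.02, 0.01 and 0.02, and those of the 36 genes 0.11, 0.12 and 0.28, so the sign of the median in 0.25% glucose depended on the scaling. With those factors *SSA4* and *HSP12* passed 2-fold in 0.25% glucose, at 1.11 and 1.05 on the log2 scale. The same factors moved the median of all genes there from -0.24 to 0.01, and the share of all genes past 2-fold under them is not given here.

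*SSA4* had the largest positive difference among the 36 genes in each carbon source. It had 94.2 CPM in PPZ1 cells and 56.5 CPM in control cells in 2% glucose, 112 and 61.2 CPM in 0.25% glucose and 2638 and 1879 CPM in galactose, which is 1.66-fold, 1.81-fold and 1.40-fold, or 0.73 ± 0.10, 0.86 ± 0.12 and 0.49 ± 0.02 on the log2 scale. Among the genes tested it stood 17th from the top in 2% glucose, 76th in 0.25% glucose and 40th in galactose. *HSP12* had log2 differences of 0.52 ± 0.03, 0.79 ± 0.04 and 0.18 ± 0.01 in the same order, and *HSP26* of 0.32 ± 0.12, 0.67 ± 0.14 and 0.17 ± 0.02. In the edgeR model the shared difference of *SSA4* was 0.83 ± 0.17, with an unadjusted p of 0.000822 and an adjusted p of 0.727. It passed the threshold with DESeq2 (adjusted p 0.00850). With other size factors and with no minimum it did not (edgeR adjusted p 0.724 and 0.7895). With each library left out in turn, its log2 difference ran from 0.69 to 0.93. It was 0.69 without either the PPZ1 or the control library in 0.25% glucose. Fits with a library left out rest on 1 residual degree of freedom, so only log2 differences are given for them. The model called 0 of the 36 genes higher or lower with *PPZ1* (0.0186% and 0.00% of all genes, the 1 gene being *PPZ1* itself). An unadjusted edgeR p under 0.05 was found for 4 of the 36 genes and for 227 of all 5382 genes.

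Some directions were shared. *HSP42*, *HSP26*, *HSP82*, *SSA4*, *FES1*, *ZUO1* and *HSP12* were higher in PPZ1 cells in all 3 carbon sources, as 7.17% of all genes were, and *CDC37*, *KAR2* and *LHS1* were lower in all 3, as 32.0% of all genes were. These counts changed with the scaling, to 18 higher and 1 lower with median-of-ratios factors (20.4% and 14.5% of all genes) and to 22 higher and 1 lower with the length trend removed (14.9% and 15.1%). The library of PPZ1 cells in 0.25% glucose, which had the fewest reads, differed from its control by gene length. Across all genes tested, Spearman's correlation of the log2 difference with coding length was -0.69 in 0.25% glucose, against -0.12 in 2% glucose and -0.12 in galactose, and over the 36 genes it was -0.56, 0.14 and -0.10. Genes are not independent replicates and the points share their libraries, so these are descriptions. Among the long members, *HSP104* (-0.63 ± 0.07) and *SSC1* (-0.91 ± 0.04) were lower in 0.25% glucose, whereas *HSC82* (0.21 ± 0.02) and *HSP82* (0.06 ± 0.06) were not. With the trend removed *HSP104* and *SSC1* stood at 0.10 and -0.35, and *HSC82* and *HSP82* at 0.78 and 0.66. By the same removal *SSA4* stood at 1.42 and *HSP12* at 0.47. The part of this trend in the differences of single genes was not tested.

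**Figure D5:**
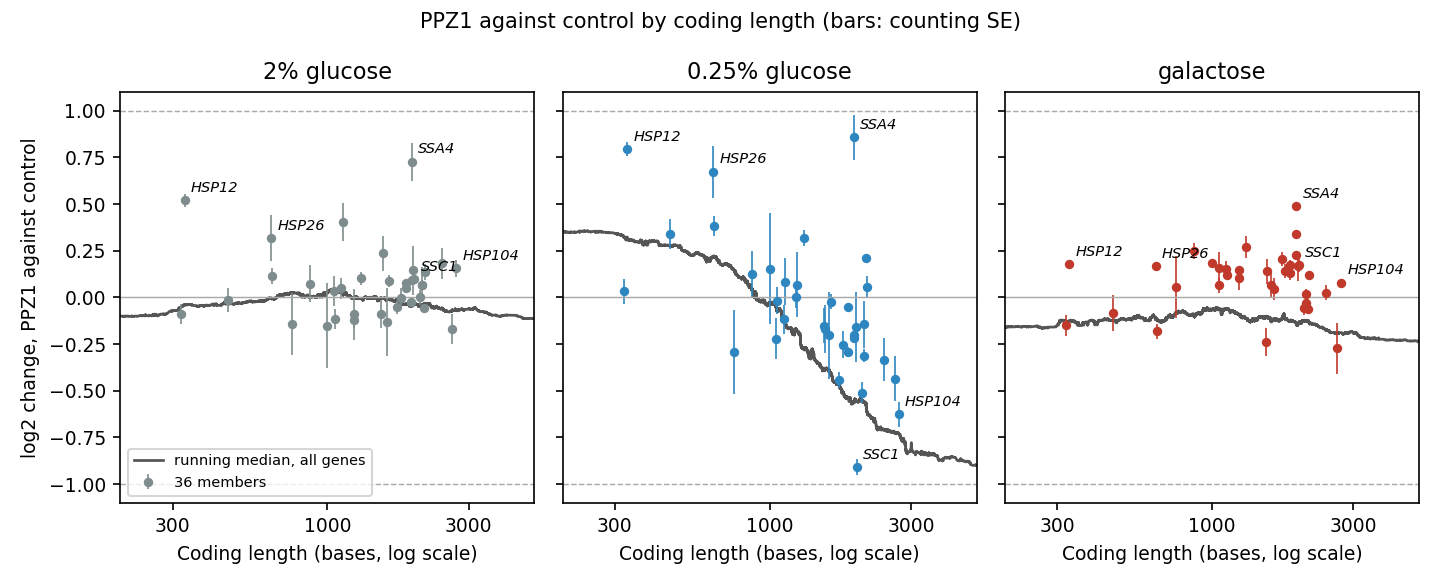
Log2 difference of PPZ1 against control cells (y axis) by coding length in bases (x axis, log scale) in 2% glucose, 0.25% glucose and galactose, with points for the 36 genes, counting SE as bars and the running median over all genes as a line. In 0.25% glucose the line runs from above 0 at short genes to below -0.8 at long ones, and *SSA4* lies above it in every panel.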

How the data were processed

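RNA of 6 cultures, 1 per condition and grouped by the plasmid and carbon source in their labels, was sequenced. The authors extracted it with the RiboPure-Yeast kit, made TruSeq LT libraries, aligned reads with Bowtie2 (version not given) and counted them in SeqMonk 0.32.1 over each coding sequence with 50 bp on either side, on the opposite strand and without duplicates. *HSP12* has more reads than its feature has start positions, and the sources do not say how duplicates were defined. No source used here names the genome build. The coordinates of all 36 genes equal those of R64. For the largest library (control cells in 0.25% glucose) the deposited values are whole read counts. For the other libraries the authors deposited a signal, the count times 1 factor per library. Division by the factor gave whole reads for 100% of the values (tolerance 0.01).

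CPM was computed as the deposited value over the total of the largest library, and log2 changes with a pseudocount of 1 CPM, which understates changes of low genes. Totals in features were 1845237 to 6784469 reads, so 10 CPM is 19.0 to 67.8 reads. The additive model was fitted with edgeR 4.0.16 (TMM, quasi-likelihood, 5382 genes averaging 10 CPM or more, Benjamini-Hochberg adjustment over all of them). Alternatives were median-of-ratios scaling, a pseudocount of 5 CPM, no minimum or a minimum of 50 CPM, removal of the length trend (running median, 301 genes in order of coding length), DESeq2 1.42.0, and each library left out. Fits were tested on simulated data. Upstream windows were cut from the R64 genome, since no promoter table was at hand. Members and gene lists were chosen with earlier results of these data known. Values in all 6 libraries are given for genes past 2-fold in any comparison and the highest of each role, and other lists by counts and the 2 members of largest mean change. The direction counts under other scalings, paralog sums, and *AHA1*, *CUR1*, *HCH1* and *SBA1* were added after values were seen.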

Additional observations from a re-analysis of the deposited data

How the results depend on the processing

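All 45 calls in galactose stayed past 2-fold under other scalings, pseudocounts and minimums, except that with the length trend removed 43 stayed, *SSA1* in control cells and *LHS1* in PPZ1 cells being lost. That removal also brought *ZUO1* in PPZ1 cells (-1.18) and *LHS1* in control cells (-1.005) past 2-fold lower. Median-of-ratios scaling did so for *LHS1* in control cells (-1.03). For PPZ1 against control cells in 0.25% glucose, 0 members were higher as reported, against 0.801% of all genes. Past 2-fold were *SSA4* and *HSP12* with median-of-ratios scaling (1.11 and 1.05) and *SSA4* with the length trend removed (1.42). The shares of all genes past 2-fold under those 2 settings are not given here. In the additive model, DESeq2 called 1 member higher with *PPZ1* (*SSA4*), out of 3 genes called higher among 5382. With each library left out in turn, members called higher with *PPZ1* numbered 0 to 1, members higher in 0.25% glucose 0 to 4 and lower 0 to 1, and members in galactose 18 to 25 higher and 4 to 7 lower. The count of 4 lower in galactose came without control cells in 2% glucose. The calls in 0.25% glucose came without control cells in 0.25% glucose (*HCH1*, *HSP10*, *HSP26* and *SBA1* higher, *SSC1* lower) or without PPZ1 cells in 0.25% glucose (*HSP60* higher, 1 call). The log2 change of *SSA4* in 0.25% glucose ran from -0.057, without PPZ1 cells in 0.25% glucose, to 0.36, without control cells in 0.25% glucose. The cause of these changes was not tested. The labels carry no replicate numbers and each condition has 1 library. Libraries were therefore matched only by the plasmid and carbon source terms of the additive model. The shallowest library, PPZ1 cells in 0.25% glucose, sets the counting error of its comparisons, up to an SE of 0.31 on the log2 scale for *HSP30*.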
